A study of Mus musculus with 11 samples.

Results

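The genes described here encode potassium channels, voltage-gated sodium channels and hyperpolarization-activated cyclic nucleotide-gated (HCN) channels, together with their auxiliary subunits. They were chosen by symbol, as every gene of the table whose mouse symbol begins with Kcn, or with Scn or Hcn and a digit, and 43 of 4338 genes met the rule. For a gene with several transcripts, the one with the most counts over all libraries was used. The annotation holds 112 protein-coding genes with such symbols, and the 69 outside the table are not analysed here.

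Ribosome footprints, the messenger RNA fragments that a ribosome shields from nuclease, had been counted in cortex of wildtype C57BL6 mice aged 7 to 8 weeks. In the stroke model (MCAO), a nylon suture blocked the right middle cerebral artery for 35 min and the cortex was taken after 3 h of reperfusion. The ipsilateral group (4 libraries, replicates 2, 4, 5 and 6) came from the occluded hemisphere and the contralateral group (4 libraries, replicates 1, 4, 5 and 6) from the opposite one. The sham group (3 libraries, replicates 1, 2 and 5) had its arteries exposed under the same anesthesia with no filament, and the side of its cortex is not stated. The tissue entry of the ipsilateral samples names the contralateral hemisphere, and the titles and descriptions were followed instead. No matched total RNA was analysed here, so transcript amount and translation cannot be told apart, and in whole tissue fewer cells of a type cannot be told apart from less RNA per cell.

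Neurons fire by opening sodium channels, whose large alpha subunit forms the pore and whose small beta subunits adjust gating and surface location. Voltage-gated potassium channels repolarize the membrane and set firing frequency, inward rectifiers hold the resting potential and, in glia, take up potassium from the extracellular space, and HCN channels carry a depolarizing current that opens on hyperpolarization. When blood flow to cortex stops, energy failure lets potassium leave the cells and sodium enter them, so these families are central to the ionic disturbance of ischemia.

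The pore of potassium channels is lined by a signature stretch, the selectivity filter. It is shown because most of the pore-forming potassium and HCN genes hold some form of it. Coding sequences of the representative transcripts were searched in frame, on the coding strand only, with threonine read as ACN, valine as GTN, isoleucine as ATN, leucine as CTN or TTN, phenylalanine as TTN, tyrosine as TAN and glycine as GGN. Read this way, ATN also takes in methionine and TTN does not tell leucine from phenylalanine, so a pattern can match peptides other than the one named. The patterns were threonine-valine-glycine-tyrosine-glycine, threonine-isoleucine-glycine-tyrosine-glycine, threonine-leucine-glycine-tyrosine-glycine with CTN and with TTN, valine-glycine-phenylalanine-glycine, isoleucine-glycine-tyrosine-glycine and isoleucine-glycine-phenylalanine-glycine. The isoleucine-glycine-tyrosine-glycine pattern lies within the second one, and patterns were added after some members had not matched. Of the 30 pore-forming potassium and HCN genes, 29 held at least 1 of these patterns, and Kcnk1 held none. The patterns were found in 146 of 4277 coding sequences in all, and the 7 shares were 0.187%, 0.2104%, 0.1403%, 0.0701%, 1.0989%, 0.6547% and 1.3093% in the order given, so the short ones are not particular to channels. The sequences below read 5′ to 3′ on the coding strand from the GENCODE vM21 annotation of mm10, with the matched codons in capitals and 6 flanking bases on each side, and the coordinates are those of the capitals. They are potassium channel genes whose values are followed below.
Kcnj10, chr1:172369302-172369316, plus strand: cagaccACCATCGGCTATGGCttccgc
Kcna2, chr3:107105224-107105238, plus strand: atgacaACTGTAGGCTATGGAgacatg
Kcnc1, chr7:46427973-46427987, plus strand: atgacgACACTGGGCTATGGAgacatg
Kcnc2, chr10:112456229-112456243, plus strand: atgactACCTTAGGTTACGGGgatatg
Kcnd2, chr6:21217406-21714141, plus strand, split by an intron: atgacaACACTGGGGTATGGCgacatg
Kcnh5, chr12:75087466-75087477, minus strand: acaaccATAGGATTTGGAaacata
Over whole transcripts, 2.21% of the 28-nt words of Kcnc1 and 0.0797% of those of Kcnc2 occurred in another gene, and a footprint of 28 nt from such a stretch cannot be assigned from its sequence.

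Library totals, with each gene counted once, ran from 64461 to 256655 in sham, 137370 to 571352 in contralateral and 35066 to 137340 in ipsilateral cortex. Channel genes held 0.668% to 0.915% of the counts of a library, and the highest share was in ipsilateral replicate 4, the shallowest library. There the median channel gene had 5 counts and 1 count was worth 28.7 CPM (library-scaled counts after TMM normalization). All 8 neuronal markers were in the table, with a summed level of 8945 to 12066 CPM over the 11 libraries. All 7 oligodendrocyte markers tested had a positive log2 change in ipsilateral against contralateral cortex, and Mbp, Mag and Cldn11 rose (edgeR quasi-likelihood test, lowest adjusted p = 0.0106). The hemoglobin genes Hba-a1 and Hba-a2 rose in the same comparison. Against sham, the 4 hemoglobin genes tested had log2 changes of 0.20 to 0.28 in ipsilateral and -0.93 to -0.49 in contralateral cortex. None of these was called. None of the 7 endothelial and pericyte markers is in the table, and those cells were not assessed here.

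Sodium channel alpha subunits gave the most footprints per gene. Scn2a, an alpha subunit of excitatory neurons and their axons, averaged 991 CPM over 11 libraries, Scn8a, the main alpha subunit of mature axon initial segments and nodes, 722 CPM, and Scn1a, which is prominent in inhibitory interneurons, 383 CPM. Scn2a exceeded Scn8a, and Scn8a exceeded Scn1a, in 11 of 11 libraries. The 3 genes together made up 24.5% to 35.8% of the summed channel CPM of a library. The median channel gene had 120 CPM against 108 CPM for all genes, and 27 of 43 lay above the latter.

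A long coding sequence yields more footprints, so levels between genes are compared per kb of coding sequence. This takes the counts to cover the coding sequence, which no source used here states. On that scale some small beta subunits were near the top: Scn2b had 401 CPM per kb and Scn4b 220, whereas Scn3b had 125. Kcnj10, the main glial inward rectifier, had 214 CPM per kb, as did Kcnab2, a cytoplasmic beta subunit of the Kcna channels. Scn2a followed with 165, Scn8a had 122 and Scn1a 63.6. Per kb of whole transcript the order differed: Kcnab2 had 158 CPM per kb, Scn2a 111, Scn2b 65.3, Scn8a 64.3, Scn1a 45.7, Kcnj10 45.1 and Scn4b 30.3. Neighbours in the order mostly changed places between libraries: Scn4b exceeded Kcnj10 in 5 of 11 libraries and Kcnj10 exceeded Kcnab2 in 3 of 11. Scn2b exceeded Scn4b in 9 of 11. Scn9a was last with 10.4 CPM per kb.

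**Figure D1:**
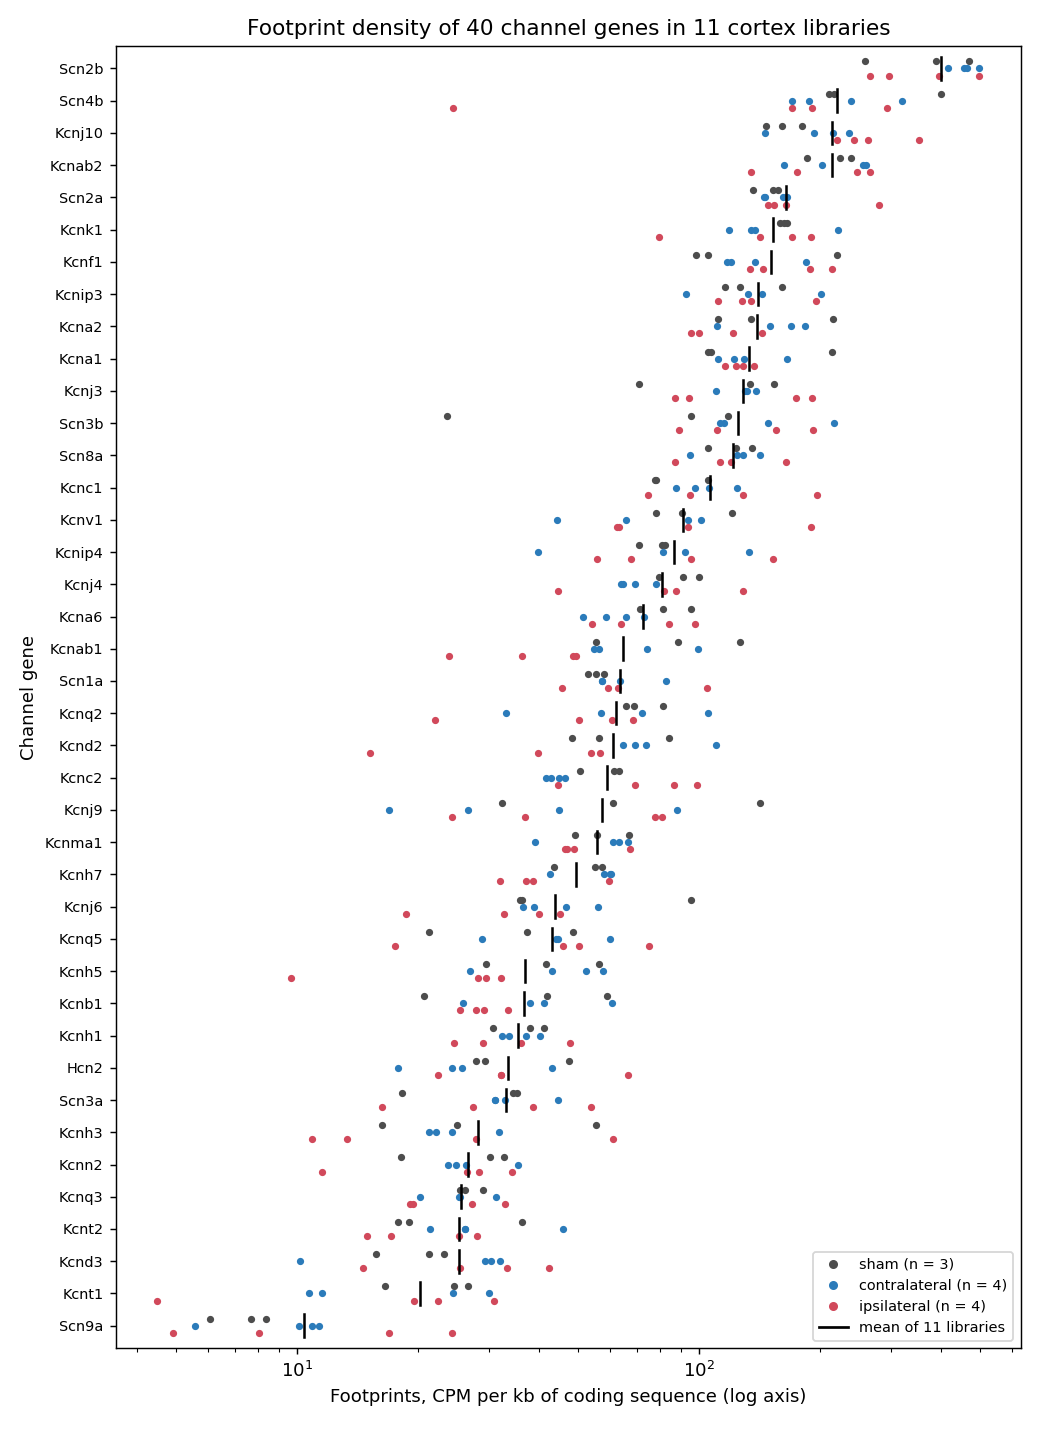
Footprint density of 40 channel genes, in CPM per kb of coding sequence on a log axis, with 1 point per library (sham n = 3, contralateral n = 4, ipsilateral n = 4) and a bar at the mean of all 11. The means run from 401 for Scn2b to 10.4 for Scn9a, and the points of neighbouring genes overlap.

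In ipsilateral against sham cortex, no channel gene passed the test: 0 of 39 were called at an adjusted p under 0.05 (edgeR quasi-likelihood test, Benjamini-Hochberg over 3807 genes), where 0.105% of all genes were called. At an unadjusted p under 0.05 there were 2 of 39, or 5.13%, against 7.72% of all genes, and DESeq2 and limma-voom also gave 2 each. Groups did not overlap for 2 of 39, against 7.17% of all genes. The log2 change was above 0 for 12 and below 0 for 27 channel genes (each 50% of all genes), with a median of -0.08, beside a median of -0.0002 over all genes tested. That median was 0.06 without ipsilateral replicate 2 and -0.19 without ipsilateral replicate 4. For 25 of 39 genes the 95% interval of the change lay within 2-fold in either direction.

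Ipsilateral against contralateral cortex also gave 0 of 39 channel genes called, where 0.315% of all genes were called. At an unadjusted p under 0.05 there were 3 of 39, or 7.69%, against 7.88% of all genes, with 2 by DESeq2 and 3 by limma-voom. Groups did not overlap for 2 of 39, against 4.57% of all genes. The median log2 change was -0.06 (0.01 without contralateral replicate 4, -0.16 without ipsilateral replicate 4), with 15 above 0 and 24 below (49.6% and 50.4% of all genes), and 27 intervals lay within 2-fold. In contralateral against sham cortex, 0 of 39 were called where 0% of all genes were, and 0 had an unadjusted p under 0.05 by any of the 3 tools, against 5.59% of all genes by edgeR. Groups did not overlap for 2 of 39, Kcnj4 and Kcnc2, against 7.7% of all genes. There the median was -0.01, with 19 above 0 and 20 below (52% and 48% of all genes), and 36 intervals lay within 2-fold. The shares of channel genes called, at an unadjusted p under 0.05 or not overlapping were near or under those of all genes in each comparison. The shares with a log2 change below 0 were above those of all genes in both ipsilateral comparisons, 69.2% against sham and 61.5% against contralateral cortex, and were not tested. Each pair of these comparisons shares a group of libraries.

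**Figure D2:**
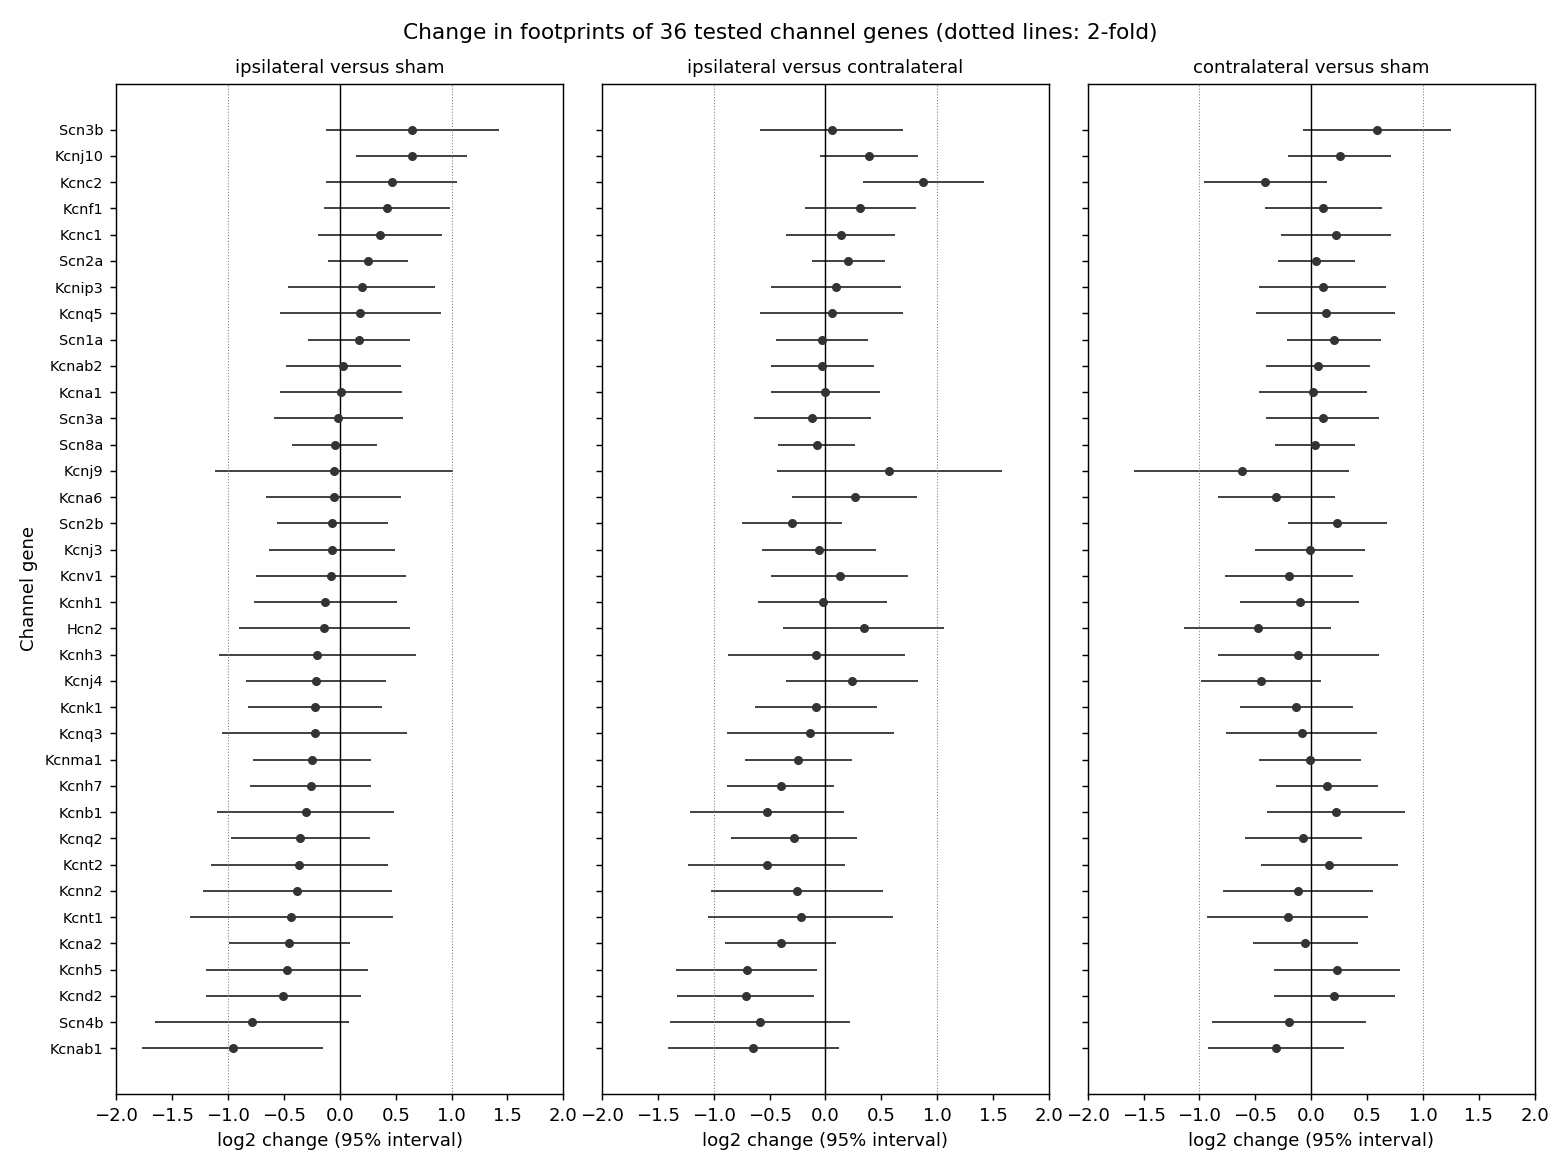
log2 change in footprints of 36 tested channel genes in the 3 comparisons, with 95% intervals from the edgeR fit, ordered by the change in ipsilateral against sham cortex, and dotted lines at 2-fold. The interval leaves out 0 for 2, 3 and 0 genes from left to right, and no gene passed after adjustment.

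Among sodium channel alpha subunits, Scn2a had 944, 820 and 919 CPM in sham replicates 1, 2 and 5, 877, 975, 875 and 994 in contralateral replicates 1, 4, 5 and 6, and 923, 1692, 988 and 892 in ipsilateral replicates 2, 4, 5 and 6. Only ipsilateral replicate 4 stood apart, on 59 counts with an exact Poisson 95% interval of 1288 to 2182 CPM, which covers counting error only. The log2 change of Scn2a against sham was 0.25 ± 0.18 (SE). It was -0.0019 without the 2 shallowest libraries, ipsilateral replicate 4 and sham replicate 2. In the fit of every distinct transcript row, another Scn2a transcript had a change of -0.55 ± 0.45 (SE) against sham. Scn8a averaged 721 ± 91 (SD, n = 3) CPM in sham, 726 ± 117 (SD, n = 4) in contralateral and 719 ± 191 (SD, n = 4) in ipsilateral cortex, and its 3 groups overlapped. Scn1a averaged 334 ± 15.6, 393 ± 72.6 and 410 ± 154 CPM in the same order, with 631 CPM in ipsilateral replicate 4. Between these paralogs, 13.4% of the 28-nt words of Scn2a, 13.2% of Scn3a and 10.9% of Scn1a occurred in another gene, so a part of their counts may be split or shared.

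The beta subunits had log2 changes of either sign, and none passed. Scn4b, a beta subunit abundant in striatal projection neurons, had 148, 273 and 144 CPM in sham, 219, 164, 129 and 117 in contralateral and 116, 201, 131 and 16.7 in ipsilateral libraries, in replicate order. The low ipsilateral value was that of replicate 6, on 2 counts, and the groups overlapped. Its log2 change against sham was -0.79 ± 0.42 (SE), with an edgeR adjusted p of 0.690, and -0.33 without ipsilateral replicate 6. Striatal markers, of which 4 of 9 are in the table, summed to 549 to 911 CPM in sham, 238 to 750 in contralateral and 229 to 720 in ipsilateral libraries, and their part in the Scn4b values was not tested. Scn3b, a beta subunit linked to persistent sodium current, had 76.1, 15.2 and 61.6 CPM in sham, 139, 74.4, 72.6 and 95.9 in contralateral and 124, 57.4, 71.4 and 100 in ipsilateral libraries. Sham replicate 2 was the lowest, on 1 count, and the groups overlapped between sham and ipsilateral and between sham and contralateral cortex. Against sham, the log2 change of Scn3b was 0.65 ± 0.38 (SE) in ipsilateral and 0.59 ± 0.33 (SE) in contralateral cortex. The first was 0.41 without ipsilateral replicate 2 and 0.98 without sham replicate 1, and the second 0.41 without sham replicate 2 and 0.93 without sham replicate 1.

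Kcnj10 had the smallest p of all channel genes against sham. This inward rectifier of astrocytes and oligodendrocytes takes up potassium released by neurons. It had 183, 167 and 205 CPM in sham, 166, 268, 244 and 220 in contralateral and 276, 401, 250 and 300 in ipsilateral libraries. The lowest ipsilateral value exceeded the highest sham value, whereas contralateral replicate 4 lay above ipsilateral replicate 5. The log2 change against sham was 0.64 ± 0.25 (SE), with an unadjusted p of 0.0122 and an adjusted p of 0.428 in the edgeR test, and against contralateral cortex it was 0.39 ± 0.22. Oligodendrocyte markers, 7 of 8 in the table, summed to 1899 to 2537 CPM in sham, 1955 to 2679 in contralateral and 2500 to 5736 in ipsilateral libraries. Astrocyte markers, 8 of 8 in the table, summed to 6288 to 8824, 7750 to 11201 and 7386 to 8660 CPM in the same order. The part of either cell type in the Kcnj10 values was not tested.

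The other inward rectifiers gave no such separation upward. Kcnj4, a rectifier of forebrain neurons, had 122, 106 and 133 CPM in sham and 86.3, 104, 92.4 and 85.5 in contralateral libraries. All contralateral values lay below all sham values, and the log2 change was -0.45 ± 0.27 (SE), with an edgeR adjusted p of 0.917. Kcnj9, a subunit of G protein-gated channels, had 38.1, 167 and 71.9 CPM in sham libraries, and its contralateral change of -0.62 ± 0.47 (SE) became -0.21 without sham replicate 2, -0.34 without contralateral replicate 6, -0.97 without contralateral replicate 4 and -1.13 without sham replicate 1. Kcnj3, another G protein-gated subunit, averaged 180 ± 65.2 CPM in sham and 205 ± 80.5 in ipsilateral libraries, and it overlaps Gm26794 on the opposite strand over 1621 nt.

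Voltage-gated potassium channels held the smallest p of any channel gene. Kcnc2, a fast-deactivating channel of fast-spiking interneurons, had 118, 122 and 97.5 CPM in sham, 86.3, 89.3, 82.5 and 80.2 in contralateral and 167, 86.0, 191 and 133 in ipsilateral libraries. Ipsilateral replicates 2, 5 and 6 lay above all contralateral libraries, and replicate 4, on 3 counts, lay among them. The log2 change against contralateral cortex was 0.87 ± 0.27 (SE, 95% interval 0.33 to 1.41), with an unadjusted p of 0.00207 and an adjusted p of 0.213 in the edgeR test. Contralateral libraries all lay below sham for this gene, with a change of -0.41 ± 0.27, and ipsilateral against sham gave 0.46 ± 0.29. Its relative Kcnc1 averaged 153 ± 27.7, 182 ± 27.3 and 217 ± 93.4 CPM in sham, contralateral and ipsilateral libraries. Interneuron markers, 6 of 6 in the table, summed to 2090 to 2749 CPM in sham, 2039 to 2384 in contralateral and 2465 to 3431 in ipsilateral libraries, and their part in the Kcnc2 values was not tested.

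Kcnd2, the pore of the dendritic A-type current of pyramidal neurons, had 107, 91.1 and 159 CPM in sham, 139, 208, 122 and 131 in contralateral and 102, 28.7, 107 and 75.0 in ipsilateral libraries. All ipsilateral values lay below all contralateral values, and replicate 4 rested on 1 count. The log2 change between them was -0.71 ± 0.30 (SE), with an adjusted p of 0.527 in the edgeR test. Kcnh5, of the ether-a-go-go family, had 79.7, 171, 155 and 127 CPM in contralateral and 87.2, 28.7, 95.3 and 83.4 in ipsilateral libraries, which overlapped through contralateral replicate 1. Its log2 change was -0.71 ± 0.31 (SE), with an adjusted p of 0.580 in the edgeR test. Kcna2, an axonal channel, averaged 231 ± 82.1 CPM in sham and 172 ± 32.6 in ipsilateral libraries, and its change of -0.45 ± 0.27 (SE) became -0.13 without sham replicate 5.

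Kcnab1, a cytoplasmic beta subunit that speeds inactivation of Kcna channels, had 107, 152 and 66.7 CPM in sham, 120, 89.3, 66.0 and 68.0 in contralateral and 43.6, 28.7, 59.5 and 58.4 in ipsilateral libraries. Every ipsilateral library lay below every library of the other groups, on 6, 1, 5 and 7 counts in replicates 2, 4, 5 and 6. This separation therefore rests on few counts. The log2 change was -0.96 ± 0.40 (SE, 95% interval -1.77 to -0.15) against sham, with an unadjusted p of 0.0204 and an adjusted p of 0.501 in the edgeR test, and -0.64 ± 0.38 against contralateral cortex. Its transcript overlaps A330015K06Rik on the opposite strand over 118 nt, and since the use of strand is not stated, reads there could come from either gene. Kcnab2, the other beta subunit of this family in the table, averaged 248 ± 31.1 CPM in sham, 252 ± 53.5 in contralateral and 236 ± 70.5 in ipsilateral libraries. The summed striatal markers given beside Scn4b had medians of 807 CPM in sham, 325 in contralateral and 411 in ipsilateral libraries, with overlapping ranges. Their part in the Kcnab1 values was not tested.

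**Figure D3:**
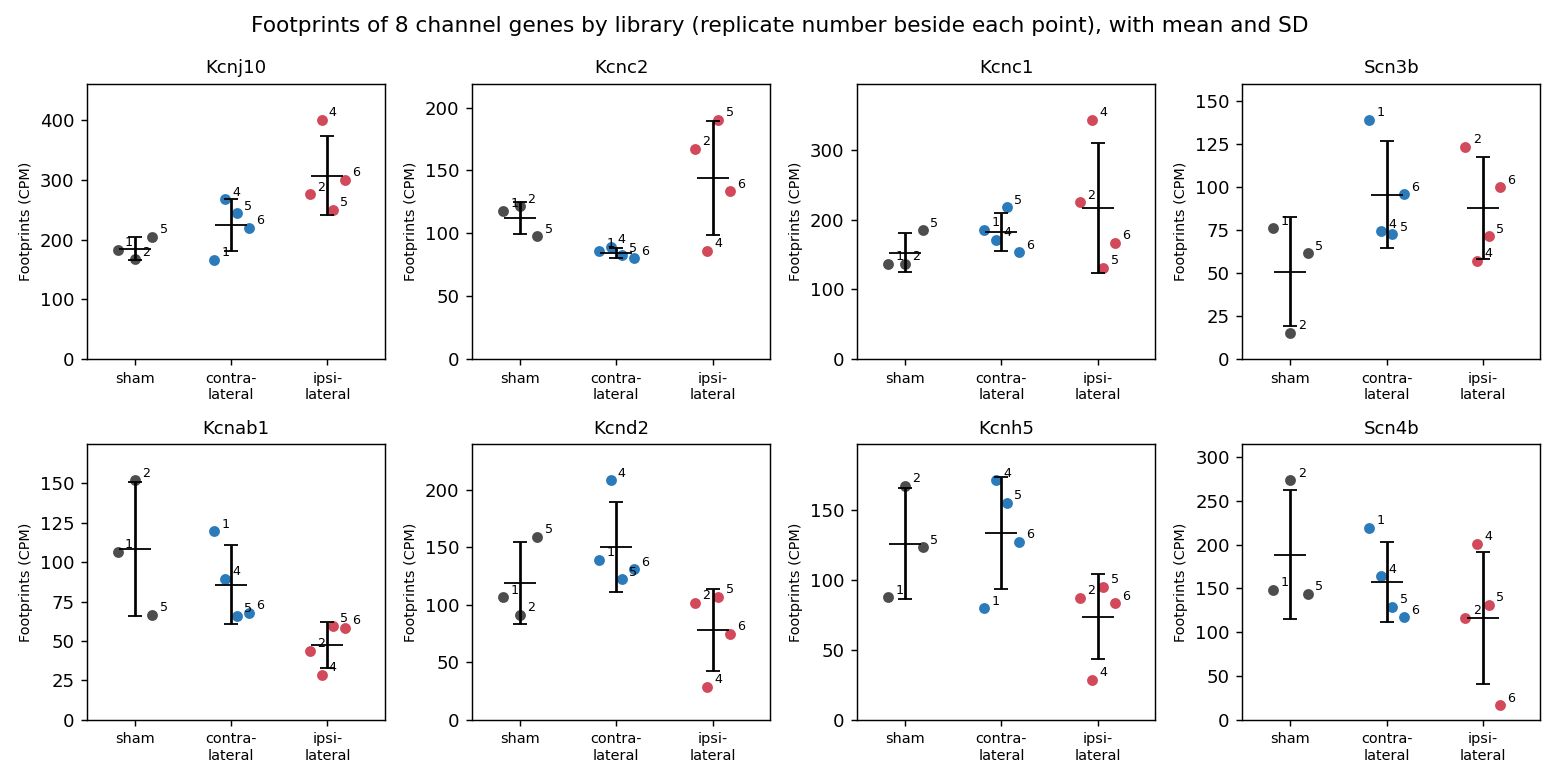
Footprints in CPM of 8 channel genes, with 1 point per library labelled by its replicate number and the mean and SD of each group. Ipsilateral points lie above all sham points for Kcnj10 and below all sham and contralateral points for Kcnab1, and the other panels show overlap in at least 1 comparison. The ipsilateral Kcnab1 points rest on 1 to 7 counts.

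Among HCN channels, Hcn2 had 72.3, 75.9 and 123 CPM in sham, 66.4, 112, 46.2 and 62.8 in contralateral and 58.2, 172, 83.3 and 83.4 in ipsilateral libraries, and all 3 groups overlapped. Its contralateral change of -0.48 ± 0.32 (SE) became -0.15 without sham replicate 5. The 4 calcium- or sodium-activated potassium channels, which include the large-conductance channel Kcnma1, all had a log2 change below 0 in ipsilateral against sham cortex, from -0.43 to -0.25, and none had an unadjusted p under 0.05 in the edgeR test.

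Summed over classes, the groups overlapped in most panels, and these sums were not tested. Voltage-gated potassium channels, 18 genes, summed to 2463 ± 378 (SD) CPM in sham, 2403 ± 274 in contralateral and 2335 ± 117 in ipsilateral libraries. Sodium alpha subunits summed to 2165 ± 66.0, 2310 ± 251 and 2532 ± 821 CPM, the last with 3757 in ipsilateral replicate 4. Sodium beta subunits summed to 802 ± 78.8, 862 ± 90.7 and 707 ± 77.8 CPM. Every contralateral library lay above every ipsilateral library, but the lowest contralateral sum was 780 CPM and the highest ipsilateral sum 762. All 43 channel genes together summed to 7430 ± 534, 7515 ± 833 and 7533 ± 1144 CPM.

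**Figure D4:**
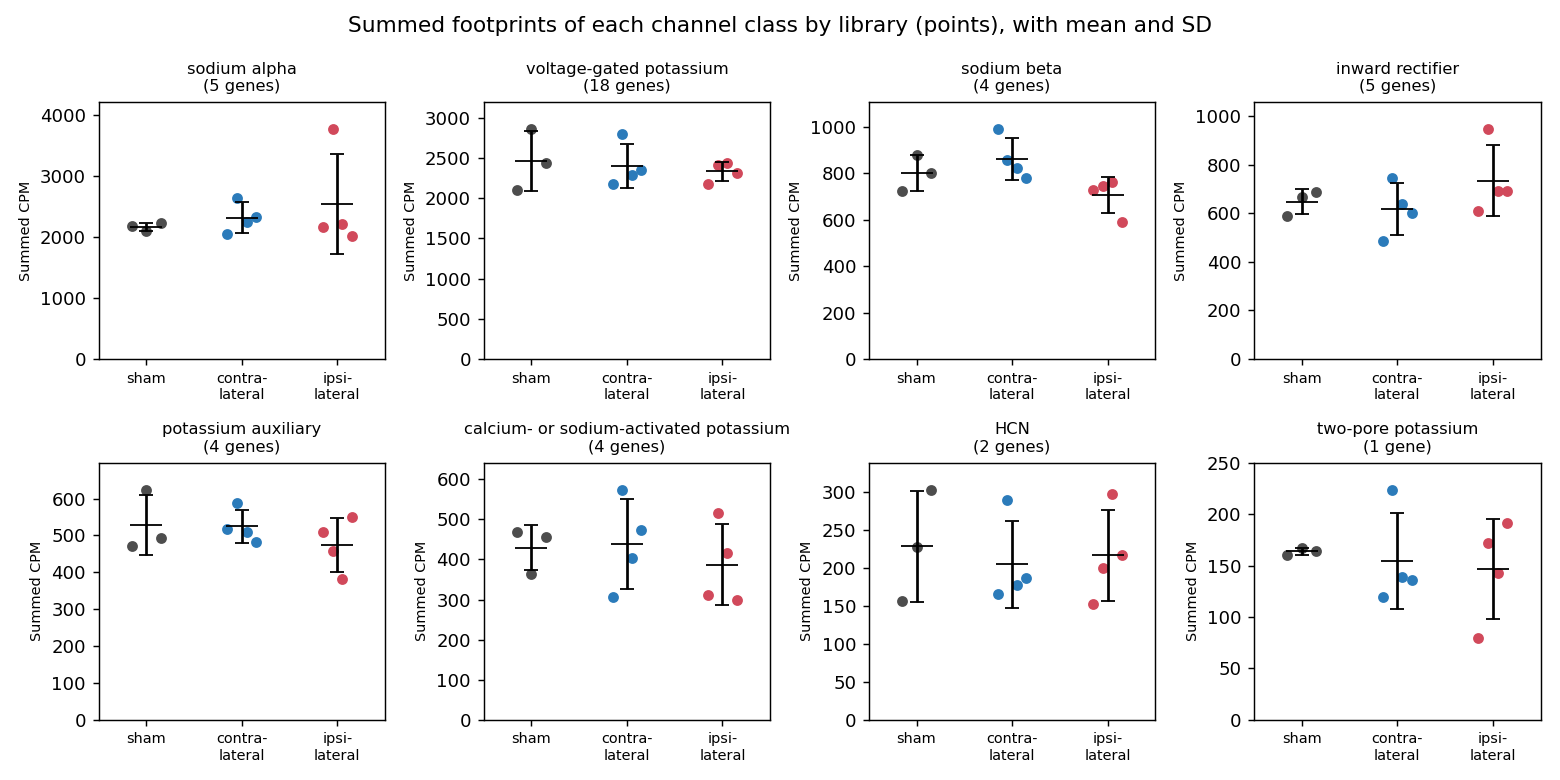
Summed CPM of 8 channel classes, with 1 point per library and the mean and SD of each group, on axes that start at 0. The sodium alpha sum of ipsilateral replicate 4, at 3757 CPM, is the point farthest from its group.

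Proteins that anchor, clamp or modify these channels were read from a list of 40 partner genes, of which 32 are in the table and 30 were tested. None was called in any comparison by the edgeR test. In ipsilateral against sham, ipsilateral against contralateral and contralateral against sham cortex, 2, 2 and 3 of 30 had an unadjusted edgeR p under 0.05. Of all genes, 7.72%, 7.88% and 5.59% did. In the same order, 17, 7 and 21 partners had a log2 change above 0, against 50%, 49.6% and 52% of all genes. The change was below 0 for 13, 23 and 9, with medians of 0.02, -0.14 and 0.12. These directions were not tested. Lgi1, a secreted protein that acts on Kcna channels and on synapses, had the smallest p between hemispheres, with 169.8 ± 37.6 (SD, n = 4) CPM in ipsilateral and 268.8 ± 29.3 (SD, n = 4) in contralateral libraries. The groups did not overlap, and the log2 change was -0.71 ± 0.24 (SE), with an adjusted p of 0.287 in the edgeR test. Nfasc, a cell adhesion protein of nodes and initial segments, had a log2 change of 0.49 ± 0.21 (SE) in ipsilateral against sham cortex, with an adjusted p of 0.501 in the edgeR test.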

How the data were processed

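The authors deposited raw footprint counts for Ensembl transcripts in 11 libraries. Per the submitters' processing notes, Bowtie2, edgeR and the build mm10 were used. How reads were filtered and counted, with which annotation and whether by strand, is not given in the sources used here. Of 9784 transcripts, 9736 matched GENCODE vM21, and the other 48, with 0.306% of counts, stayed out. Every transcript had a summed count of at least 101, so lower ones are not analysed here.

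Tests used the edgeR package (version 4.0.16, under R 4.3.3) with filterByExpr at a minimum count of 10 (3807 genes kept, 531 removed; Kcnd3, Kcnip4, Kcnj6 and Scn9a among the latter), TMM scaling and a robust quasi-likelihood fit of all 11 libraries, with Benjamini-Hochberg adjustment at 0.05. The code was tested on simulated data. Named genes are any past the threshold, the 24 with the highest mean CPM and the 6 with the smallest p in each comparison, 31 in all. Others are given by class, and some genes are not reported here. Members and lists were chosen with earlier results of these data known.

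Replicate numbers name the day of surgery, per the series' design text, which says that each set of replicates is of animals from its own day. Whether both hemispheres came from 1 animal is not stated. Deviations from group means correlated at r = -0.137 to 0.225 (median 0.134) across genes in the 7 same-number pairs. In 33 other pairs r was -0.256 to 0.262 (median -0.0294). Alternatives were DESeq2 1.42.0, its size factors, limma-voom (limma 3.58.1), no filter, the 2 groups alone, a replicate block, each library left out, the 2 shallowest left out, and, chosen after seeing the data, every transcript row.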

Additional observations from a re-analysis of the deposited data

Results flagged for a closer look

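In groups of 4 libraries, 5 genes and 2 class sums had 1 library farther from the others than Dixon's 95% critical value allows. Chance flags about 1 in 20 such groups, and 104 were examined. In ipsilateral replicate 4, Scn2a stood at 1690 CPM with the others at 892 to 988, Kcnma1 at 229 with the others at 158 to 167, and the summed sodium alpha subunits at 3760 with the others at 2010 to 2200. That Kcnma1 value rested on 8 counts, with an exact Poisson 95% interval of 99.0 to 452 CPM. In contralateral replicate 1, Kcnd3, a pore of the A-type current, stood at 19.9 CPM with the others at 57.6 to 62.7, and Kcnh7, of the ether-a-go-go family, at 153 with the others at 208 to 216. That Kcnd3 value rested on 3 counts. In contralateral replicate 4, Scn3a stood at 260 CPM with the others at 181 to 193, and the summed HCN channels at 290 with the others at 166 to 187.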

How the results depend on the processing

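No channel gene was called in any of the 3 comparisons under any of the 19 alternatives, with lowest adjusted p-values of 0.315 (ipsilateral against sham), 0.123 (ipsilateral against contralateral) and 0.726 (contralateral against sham). With the replicate block, which pairs libraries by day of surgery, 0 channel genes were called in each comparison, all genes called numbered 3, 9 and 0, and the median log2 change of channel genes was -0.2026, -0.01954 and -0.1339. The block changed no call of a channel gene. DESeq2 gave an adjusted p of NA for 22, 6 and 0 channel genes. The counts over all genes were less stable. In ipsilateral against sham cortex, 4 genes were called, 10 with DESeq2, 10 over every transcript row, and 0 (without sham replicate 1) to 22 (without ipsilateral replicate 5) on leaving out 1 library. Ipsilateral against contralateral gave 12 called genes, 7 without the 2 shallowest libraries, 39 over every transcript row, and 4 to 26 on leaving out 1 library: 5 without contralateral replicate 1, 4 without contralateral replicate 6, 6 without ipsilateral replicate 2 and 26 without ipsilateral replicate 5. Contralateral against sham gave 0 called genes, 2 with DESeq2 and 0 to 3 on leaving out 1 library, with 3 without sham replicate 5 and 1 without ipsilateral replicate 6. The cause of these moves was not tested. On leaving out 1 library, the median log2 change of channel genes ran from -0.1889 to 0.06116, -0.159 to 0.01202 and -0.07137 to 0.051, so it turned sign in each comparison. Among named genes, on their representative transcripts, log2 changes near 0 turned sign for 3. Scn8a became 0.01219 without sham replicate 2 and 0.08538 without ipsilateral replicate 6 in ipsilateral against sham cortex, and 0.06333 without ipsilateral replicate 6 against contralateral; leaving out 1 library moved it over -0.1732 to 0.08538 and -0.1896 to 0.06333. Scn1a against sham became -0.002636 without ipsilateral replicate 4 and -0.02832 without the 2 shallowest libraries, which also brought Scn2a to -0.001931. The median standard error of a log2 change was 0.31, 0.29 and 0.27 in the 3 comparisons, and the parts of depth and of variation between animals in it were not separated.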
